A study of Rattus norvegicus with 3 samples.

Results

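The claudins of the nephron were followed in rat kidney RNA: Cldn1, Cldn2, Cldn3, Cldn4, Cldn7, Cldn8, Cldn10, Cldn11, Cldn16 and Cldn19. Their probes were found by the RefSeq accession that the array gives for each probe. All 10 genes were on the array, 8 of them with 1 probe and 2 with 2 probes, and 9 of the 10 were among the 14183 genes tested, of which 8912 have a RefSeq symbol. The others stand under an accession or probe name and count in every share of all genes. They were grouped by the segment in which each is best known: Cldn2 in the proximal tubule, Cldn10 in the proximal tubule and thick ascending limb, Cldn11, Cldn16 and Cldn19 in the thick limb, Cldn3, Cldn4, Cldn7 and Cldn8 in the collecting duct, and Cldn1 in the epithelium of Bowman's capsule.

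The study compared male Sprague-Dawley rats, bought at the age of 5 weeks, that were given γ-aminobutyric acid (GABA) at 200 ppm in the drinking water (G200) with control rats of the same strain, sex and age. According to the methods, GABA followed 1 week of acclimation and lasted 3 weeks. Total RNA came from kidney tissue labelled as non-tumor region. It was measured on 3 Agilent arrays with 2 colours, with control RNA in Cy3 (green) and G200 RNA in Cy5 (red) on each, all on 1 slide. Since 0 arrays had swapped dyes, a dye effect and an effect of GABA cannot be told apart for any single probe. Values are log2 ratios of G200 over control after background correction and loess, a normalization that removes the trend of the ratio with brightness on each array. A gene was called when its adjusted p from limma, a linear model fitted across all genes, was under 0.05.

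Claudins are membrane proteins that join neighbouring epithelial cells at tight junctions. Some form paracellular pores and others form barriers, so the set of claudins in a segment decides which ions pass between its cells. The proximal tubule is a leaky epithelium with a cation pore, the thick limb reabsorbs calcium and magnesium between cells, and the collecting duct is tight.

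Before any comparison, the control channels of the 3 arrays were compared with each other. Among 1111 probes with at least 5 spots and a green signal well above background, 12 differed between arrays beyond the scatter of replicate spots. For the red signal, 846 of 1087 did. For each probe, the squared difference between arrays was divided by its mean expected from replicate spots. Where arrays do not differ, the median of this ratio over probes lies under 1. It was 0.375 to 1.43 between control channels, highest for replicates 1 and 2, and 6.06 to 21.4 between G200 channels. The control was therefore counted as 1 sample, and the tests leave out the spread between control rats. The tissue markers Slc34a1 and Lrp2 (proximal tubule), Umod and Slc12a1 (thick limb), Slc12a3 (distal convoluted tubule) and Aqp2 (collecting duct) were well above background in both colours on all 3 arrays. Genes of liver were well above background too, and their values are given beside the claudins that liver is also known to express.

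Cldn2, Cldn10 and Cldn16 were higher in G200, Cldn3 was lower, and 5 tested claudins were not called. None of the 9 differed 2-fold with loess and a normexp offset of 50. Other settings put Cldn2 past 2-fold, at 1.18 with an offset of 0, 1.35 in the Feature Extraction log ratio, 1.31 with median centring and 1.66 without normalization, and Cldn10 at 1.21 and 1.56 in the last 2 of these. Without normalization Cldn16 (1.23) and Cldn19 (1.05) passed it too. With loess and that offset, calls were 3 of 9 higher (33.3%) and 1 of 9 lower (11.1%), while over all genes tested 11.5% were called higher and 25.9% lower. Among the 8912 with a symbol the shares, counted after the values were seen, were 11.8% and 22.4%. With so few members these shares say nothing particular to the family. The median ratio was 0.03 over the 9 tested claudins and -0.05 over all genes. 3 of them were positive on all 3 arrays, 2 were negative on all 3, and 4 had both signs. The scale of these ratios depends on the normalization: the median of all genes was 0.27 when each array was only centred on its median and 0.62 without any dye normalization, and that of the claudins 0.56 and 0.91. In the Feature Extraction log ratio the claudin median was 0.33 and that of all genes -0.02. Higher calls made up 30.8%, 80.0% and 96.3% of all calls with loess, with centring and without normalization.

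**Figure D1:**
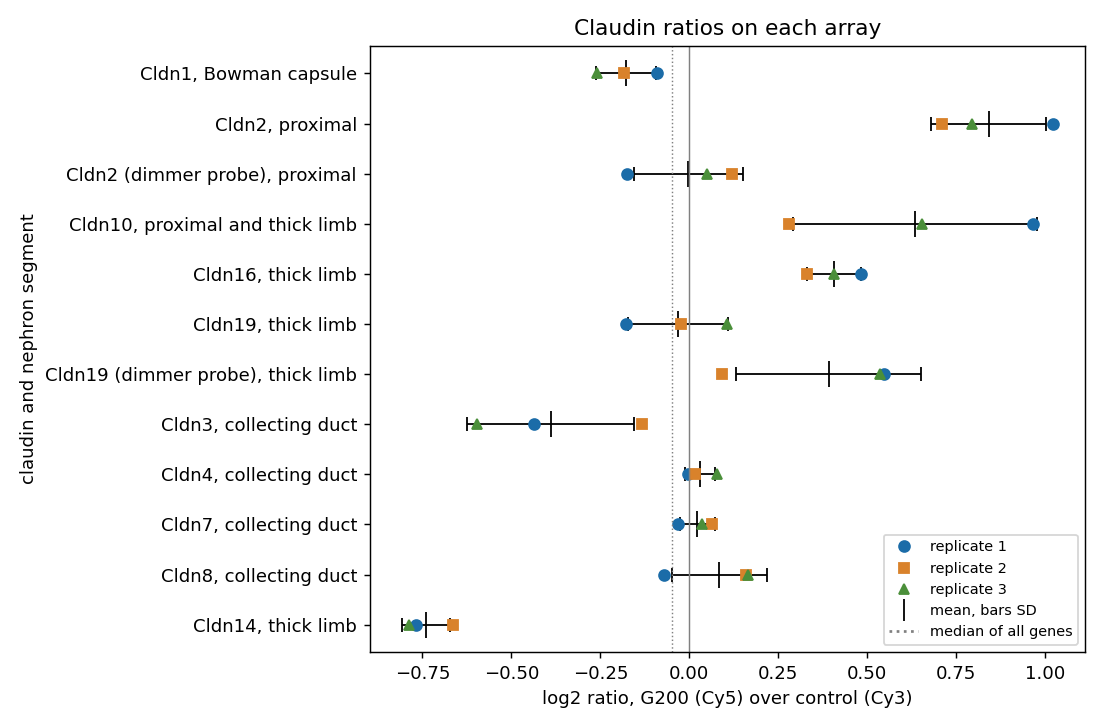
Log2 ratio of G200 over control (horizontal axis) of each tested nephron claudin and of Cldn14, by probe, with 1 symbol per array, the mean as a vertical tick and the SD over 3 arrays as bars, and a dotted line at the median of all genes, -0.05. The brightest Cldn2 probe lies between 0.71 and 1.02 while the dimmer one lies around 0. Cldn3, negative on all 3 arrays here, turns positive when the arrays are only centred on their medians.

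Cldn2 forms the cation and water pore of the proximal tubule. Its brightest probe had ratios of 1.02, 0.71 and 0.79 on replicates 1, 2 and 3. The mean was 0.84 ± 0.16 (SD, n = 3, 95% interval 0.64 to 1.04), and limma gave an adjusted p of 0.00147. It was higher in G200 on 3 of 3 arrays, with a ratio above that of 99.8% of the genes tested. The dimmer Cldn2 probe had ratios of -0.18, 0.12 and 0.05, with both signs among the arrays. Its mean was -0.00 ± 0.15, and limma over all probes gave an adjusted p of 0.983. The 2 probes of Cldn2 thus disagreed, and the rise rests on the brighter one. The mean of both probes was 0.42 (limma, adjusted p = 0.00488). On replicates 1, 2 and 3 the brighter probe had green intensities of 104, 97 and 96 and red intensities of 589, 235 and 330, on local backgrounds of 24 to 26 (green) and 49 to 52.5 (red). The dimmer one had green intensities of 66, 71 and 64 and red intensities of 109, 96.5 and 106.5. Both were marked well above background in both colours on every array. Which transcripts each probe reads was not determined.

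Cldn10 is made in several isoforms, of which one is known as an anion pore of the proximal tubule and another as a cation pore of the thick limb. Which of them the probe reads was not determined. Its ratios were 0.97, 0.28 and 0.65 on replicates 1, 2 and 3. The mean was 0.63 ± 0.34 (SD, n = 3, 95% interval 0.32 to 0.95), with an adjusted p of 0.0132 in limma. All 3 arrays were positive, with replicate 2 the lowest, and the spread between arrays was wide. Without replicate 3 the mean was 0.62 and limma's adjusted p was 0.0841.

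Cldn16 works with Cldn19 in the paracellular uptake of magnesium and calcium in the thick limb. The Cldn16 ratios were 0.48, 0.33 and 0.41 on replicates 1, 2 and 3. The mean was 0.41 ± 0.08 (SD, n = 3, 95% interval 0.24 to 0.57), with an adjusted p of 0.00705 in limma. The arrays lay close together, and the rise was small and on 3 of 3. Without replicate 3 the mean was again 0.41, with an adjusted p of 0.0673 in limma on the 2 arrays left.

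Cldn19, the partner of Cldn16, had ratios of -0.18, -0.02 and 0.11 on its brightest probe. The mean was -0.03 ± 0.14 (SD, n = 3, 95% interval -0.22 to 0.16), and limma gave an adjusted p of 0.771. The arrays lay on both sides of 0. The dimmer Cldn19 probe gave 0.55, 0.09 and 0.54, positive on all 3 arrays, with a mean of 0.39 ± 0.26 and an adjusted p of 0.0317 in limma over all probes. The probes of Cldn19 therefore disagreed in the opposite order to those of Cldn2, and the brightest one also turned to 0.70 with median centring and 1.05 without normalization, called higher in both (limma, adjusted p = 0.0192 and 0.00719). Cldn11, which is known in the thick limb and in myelin, was not well above background in either colour on any array, and no ratio is given for it. Of the 4 thick limb claudins, Cldn10 counted among them, 2 were called higher and 1 was not called, where 11.5% of all genes were called higher and 25.9% lower.

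Cldn14 is not among the 10, but it is known in the thick limb as the claudin that the calcium-sensing receptor raises and that blocks the Cldn16 and Cldn19 pore. Its ratios were -0.77, -0.66 and -0.79 on replicates 1, 2 and 3. The mean was -0.74 ± 0.07 (SD, n = 3), with an adjusted p of 0.00123 in limma. The fall was alike on all 3 arrays. Its signal was dim, with red intensities of 117, 71 and 72 on local backgrounds of 57, 42 and 44.5, and green intensities of 96, 101 and 94 on 22, 26.5 and 27. The mean was -1.43 with a normexp offset of 0 and -1.99 in the Feature Extraction log ratio, which changes background correction and dye normalization together. Without normalization between the dyes it was -0.22 and not called (limma, adjusted p = 0.345). By the methods' t-test of unequal variance the call was lost as well (adjusted p = 0.0507), with the mean still at -0.74. Of the 12 claudins outside the 10, 3 were tested. Cldn5, the claudin of endothelium, had a mean of 0.06 (limma, adjusted p = 0.564) and Cldn23 one of -0.20 (limma, adjusted p = 0.248), and neither was called. The Cldn23 mean was -0.02 without replicate 1 and -0.35 without replicate 2. Without normalization between the dyes Cldn23 was at 0.63 and called higher (limma, adjusted p = 0.0212).

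**Figure D2:**
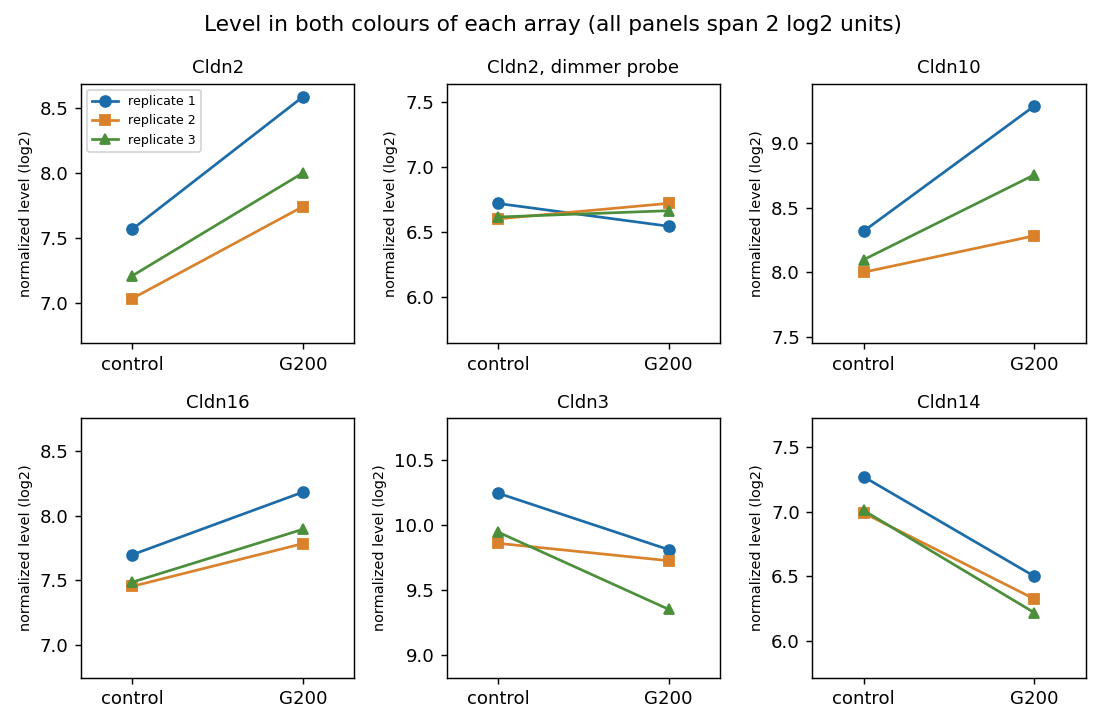
Normalized log2 level (vertical axis) in the control and G200 channel of each array, joined by a line per array, for 2 probes of Cldn2 and for Cldn10, Cldn16, Cldn3 and Cldn14. Lines of the brighter Cldn2 probe, Cldn10 and Cldn16 go up on all 3 arrays and those of Cldn3 and Cldn14 go down, while the dimmer Cldn2 probe has both directions. Cldn3 goes up in the mean when the dyes are not normalized by loess.

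The sequence upstream of the start is shown for the 3 thick limb claudins that passed the test, since Cldn10 and Cldn16 were higher and Cldn14 lower. In the RefSeq promoter table (GRCr8), 8 of the 10 nephron claudins were matched by symbol, and Cldn14 as well. Cldn2 and Cldn4 were not matched. Whether the Cldn10 window lies before the start of the isoform that the probe reads was not determined. Each line holds the 250 bases before the annotated start, 5′ to 3′, with matches to the searched motifs in capitals.
Cldn10, chr15:102269608-102269857, plus strand: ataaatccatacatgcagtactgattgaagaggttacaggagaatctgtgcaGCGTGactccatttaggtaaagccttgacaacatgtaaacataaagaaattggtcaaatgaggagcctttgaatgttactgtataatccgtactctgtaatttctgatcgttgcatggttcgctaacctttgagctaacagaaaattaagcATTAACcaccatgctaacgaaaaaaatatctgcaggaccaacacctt
Cldn16, chr11:87814397-87814646, minus strand: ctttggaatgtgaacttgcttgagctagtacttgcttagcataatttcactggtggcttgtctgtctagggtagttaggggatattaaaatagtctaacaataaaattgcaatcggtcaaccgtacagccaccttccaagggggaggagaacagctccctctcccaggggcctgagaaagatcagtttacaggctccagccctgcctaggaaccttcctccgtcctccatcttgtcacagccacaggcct
Cldn14, chr11:46711739-46711988, minus strand: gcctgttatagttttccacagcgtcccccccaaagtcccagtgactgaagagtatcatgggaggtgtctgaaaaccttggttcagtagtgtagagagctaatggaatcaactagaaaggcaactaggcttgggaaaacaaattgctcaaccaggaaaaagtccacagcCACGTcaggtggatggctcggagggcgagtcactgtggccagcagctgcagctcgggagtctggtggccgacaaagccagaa
The motifs, picked after the values were seen and searched on both strands, were these: TATAAA for the box bound by the TATA-binding protein, ACGTG as well as GCGTG (which differ in the first letter) for the core of the hypoxia response element, GTTAAT for part of the HNF1 site, and AACNNGTT for the grainyhead site. In Cldn10 the capitals mark a match to GCGTG that begins 198 bases before the start and a match to GTTAAT on the other strand, 47 bases before it. In Cldn14 they mark ACGTG on the other strand, 82 bases before the start, and in the Cldn16 window no searched motif was found. Of 33469 promoters of the same length, 12.9% held TATAAA, 16.6% ACGTG, 25.9% GCGTG, 6.45% GTTAAT and 3.6% AACNNGTT. Of the 8 matched nephron claudins, 4 held GCGTG (Cldn1, Cldn7, Cldn10 and Cldn11), 1 held GTTAAT (Cldn10) and 0 held a TATA box, the other hypoxia core or the grainyhead letters. GC made up 38% of the Cldn10 window, 49.2% of that of Cldn16 and 52.4% of that of Cldn14. These matches describe letters only.

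Cldn3 seals the junction of the tighter distal segments. Its ratios were -0.44, -0.13 and -0.60 on replicates 1, 2 and 3. The mean was -0.39 ± 0.23 (SD, n = 3, 95% interval -0.63 to -0.15), with an adjusted p of 0.0270 in limma. It was lower on 3 of 3 arrays under loess, but the mean turned to 0.29 with median centring, not called, and to 0.64 without normalization, where it was called higher (limma, adjusted p = 0.0311). Both values were close to the median of all genes under that setting. The call was also lost with a normexp offset of 0, in the Feature Extraction log ratio, and without replicate 1 or 3, where the mean was -0.42, -0.34, -0.37 and -0.28 and limma's adjusted p was 0.0573, 0.108, 0.0584 and 0.170.

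Cldn4 and Cldn8 are known as partners that form the chloride path of the collecting duct, and Cldn7 also lies along the lateral membrane there. Cldn4 had ratios of -0.00, 0.02 and 0.08, with a mean of 0.03 ± 0.04 and a 95% interval of -0.13 to 0.19. For Cldn7 they were -0.03, 0.06 and 0.04, with a mean of 0.02 ± 0.05 and an interval of -0.14 to 0.18. For Cldn8 they were -0.07, 0.16 and 0.17, with a mean of 0.08 ± 0.13 and an interval of -0.10 to 0.27. Each of them had both signs among the arrays, and limma's adjusted p was 0.727, 0.799 and 0.416 for Cldn4, Cldn7 and Cldn8. Calls appeared under other settings: Cldn4 was at 0.56 with median centring and 0.91 without normalization (limma, adjusted p = 0.0270 and 0.0102), Cldn8 at 0.70 without normalization (limma, adjusted p = 0.0167) and Cldn7 at 0.38 in the Feature Extraction log ratio (limma, adjusted p = 0.0381). Of the 4 collecting duct claudins, 1 was called lower, where 25.9% of all genes were, and 3 were not called, with a median of 0.03. A difference between segments was not tested.

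Cldn1, a barrier claudin found in the parietal cells of Bowman's capsule, was read from 1 probe with 10 spots on each array, 1 of which was left out on replicate 1. Its ratios were -0.09, -0.18 and -0.26 on replicates 1, 2 and 3. The mean was -0.18 ± 0.08 (SD, n = 3, 95% interval -0.34 to -0.01), and limma's adjusted p of 0.0888 missed the threshold. It was negative on 3 of 3 arrays. The mean was -0.40 with a normexp offset of 0 and -0.51 in the Feature Extraction log ratio, neither called (limma, adjusted p = 0.0550 and 0.0647), and 0.27 without normalization between the dyes.

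Liver is known to express Cldn1, Cldn2, Cldn3 and Cldn14 as well as kidney. On these arrays all 18 tested genes of a list of 20 liver genes were called lower in G200, with a median of -2.99 and array medians of -1.59, -3.14 and -4.19 on replicates 1, 2 and 3. Their summed level was 209418, 198392 and 226335 in the control channels and 63829, 21130 and 9216 in the G200 channels. The brightest was Tf, with a mean of -2.53, and Alb, the defining marker, had one of -3.82. All 18 were well above background in both colours on all 3 arrays, and Cps1 and Tat were not tested. Of the claudins shared with liver, Cldn3 and Cldn14 fell, Cldn1 was negative without a call and Cldn2 rose on 1 of its 2 probes. Summed, the liver genes were thus higher in the control channel of every array, and whether the control sample held liver tissue, which would bear on what each ratio compares, was not tested. Nor was the part of liver transcripts in the claudin values.

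**Figure D3:**
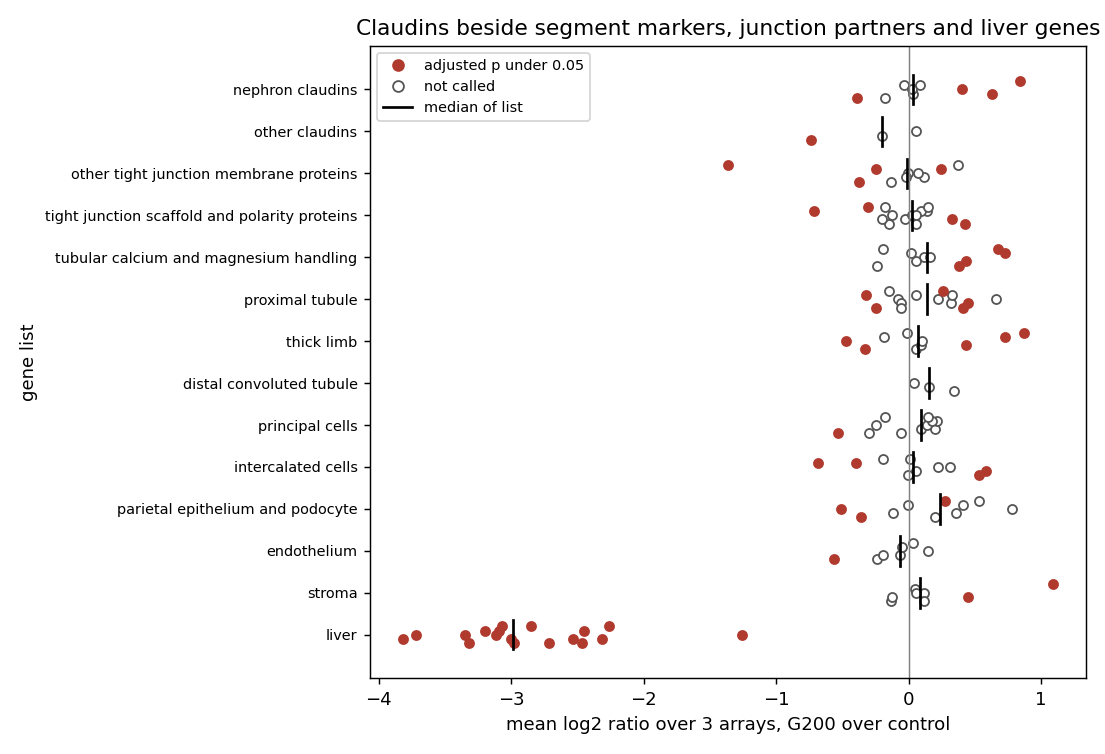
Mean log2 ratio over 3 arrays (horizontal axis) of every tested gene in each list, filled where limma's adjusted p was under 0.05 and open where not, with the median of the list as a black bar. The nephron claudins spread from -0.39 to 0.84 around a median of 0.03, while all 18 liver genes lie at -1.26 or lower. With median centring the claudin median becomes 0.56 and that of all genes 0.27.

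Lists of segment markers are given beside the claudins, with calls under loess, where 11.5% of all genes were called higher and 25.9% lower. In a bulk kidney sample, fewer cells of a segment and less RNA per cell cannot be told apart. Beside Cldn2 and Cldn10, 3 of 14 tested proximal genes were called higher and 2 lower. Their median was 0.14, but 0.79 with median centring and 1.14 without normalization, where that of all genes was 0.27 and 0.62. Cubn (0.45, limma, adjusted p = 0.0351) and Lrp2 (0.26, limma, adjusted p = 0.0332), the paired receptors of protein uptake, were higher, and the transcription factor Hnf4a was lower (-0.32, limma, adjusted p = 0.0129). The phosphate transporter Slc34a1 (-0.06) and the brightest gene of the list, the amino acid transporter Slc7a13 (0.33), were not called.

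Beside Cldn10, Cldn16 and Cldn19, 3 of 10 tested thick limb genes were called higher and 2 lower. Their median was 0.07, but 0.62 with median centring and 0.97 without normalization. Umod, the most abundant protein of normal urine, had ratios of 0.98, 0.81 and 0.82, with a mean of 0.87 (limma, adjusted p = 0.00101). Casr, the calcium-sensing receptor, had ratios of 0.33, 0.47 and 0.51, with a mean of 0.44 (limma, adjusted p = 0.00625). The cotransporter gene Slc12a1, whose work sets the voltage that drives cations through the Cldn16 and Cldn19 path, had -0.18 and was not called (limma, adjusted p = 0.0901). Cldn16, Umod and Casr were thus positive on all 3 arrays.

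The list of tubular calcium and magnesium handling held 18 genes, of which 10 were tested. Trpm6, Trpv5, Calb1, Slc8a1, Atp2b4, Cnnm4, Slc41a3 and Pthlh were not tested and have no ratio here. Of the 10 tested genes, 4 were called higher and 0 lower, against 11.5% and 25.9% of all genes. Their median was 0.14 with loess, 0.60 with median centring and 0.95 without normalization, where that of all genes was -0.05, 0.27 and 0.62. The 4 were Egf (0.73), whose product acts on magnesium uptake, Fxyd2 (0.67), a subunit of the sodium pump and the brightest of the list, Casr, and Pth1r (0.38), the receptor of parathyroid hormone. Limma's adjusted p was 0.00812, 0.00594 and 0.00864 for Egf, Fxyd2 and Pth1r. Pth1r was named after its values were seen. Egf and Casr are in the thick limb list too. In the distal convoluted tubule list 0 of 3 tested genes were called, and the cotransporter gene Slc12a3 had ratios of 1.23, -0.00 and -0.20, so that replicate 1 alone was high.

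Beside the collecting duct claudins, 1 of 11 tested genes of principal cells was called, lower: the transcription factor Tfap2b (-0.53, limma, adjusted p = 0.00550). Of the 11 genes, 6 were positive and 5 negative, with a median of 0.09. That median was 0.43 with median centring, 0.79 without normalization and -0.08 without replicate 1. The water channel gene Aqp2 had ratios of -0.37, -0.03 and -0.50, with a mean of -0.30 that was not called (limma, adjusted p = 0.0605). Replicate 2 was nearest to 0 for Aqp2 as it was for Cldn3. The same held for Cldn10 and for junction genes such as Lsr and Tjp1, so this is not particular to the collecting duct. Of 10 tested genes of intercalated cells, 2 were called higher and 2 lower, among them the ammonia transporter Rhbg (0.59, limma, adjusted p = 0.0101), the anion exchanger Slc4a1 (-0.68, limma, adjusted p = 0.00348), which red cells also carry, and the carbonic anhydrase Car2 (-0.40, limma, adjusted p = 0.00935). Beside Cldn1, 1 of 10 tested genes of parietal epithelium and podocytes was called higher and 2 lower, with Ncam1 at -0.51 (limma, adjusted p = 0.00621) and Podxl at 0.36, not called. The other called lower, Pax2 (-0.36), named after its values were seen, was well above background in 3 control channels and 0 G200 channels, so it passed the filter through the control alone and its size is uncertain. Of 7 endothelial genes, which stand beside Cldn5, 1 was called lower (Pecam1, -0.56, limma, adjusted p = 0.00235), and Plvap was not called at -0.20. Of 8 stromal genes 2 were called higher, led by Dcn (1.09, limma, adjusted p = 0.00307), and Col3a1 was not called at 0.05.

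Partners of claudins at the junction were counted under loess too, where 11.5% of all genes were called higher and 25.9% lower. Among other membrane proteins of the tight junction, 1 of 10 tested was called higher and 3 lower. Their median was -0.01, but 0.32 with median centring, 0.67 without normalization and 0.18 in the Feature Extraction log ratio. Ocln (occludin) had ratios of -0.34, -0.18 and -0.23, with a mean of -0.25 (limma, adjusted p = 0.0331). Ildr1, a protein of contacts between 3 cells, was higher (0.25, limma, adjusted p = 0.0329), and Tmem47, a distant relative of claudins, was lowest and brightest (-1.36, limma, adjusted p = 0.00119). Among scaffold and polarity proteins, 2 of 15 tested were called higher and 2 lower. Their median was 0.02, and 0.29, 0.64 and 0.22 under those settings. Tjp1 (ZO-1), which binds the tail of most claudins, had ratios of 0.51, 0.12 and 0.35, with a mean of 0.33 (limma, adjusted p = 0.0328). Pals1 was higher too (0.43, limma, adjusted p = 0.00511), Tjp3 (ZO-3) was lower (-0.72, limma, adjusted p = 0.00118), and the kinase Prkci, the brightest, was not called at 0.15. So Tjp1 and Tjp3, of 1 scaffold family, lay on opposite sides of 0 under loess.

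**Figure D4:**
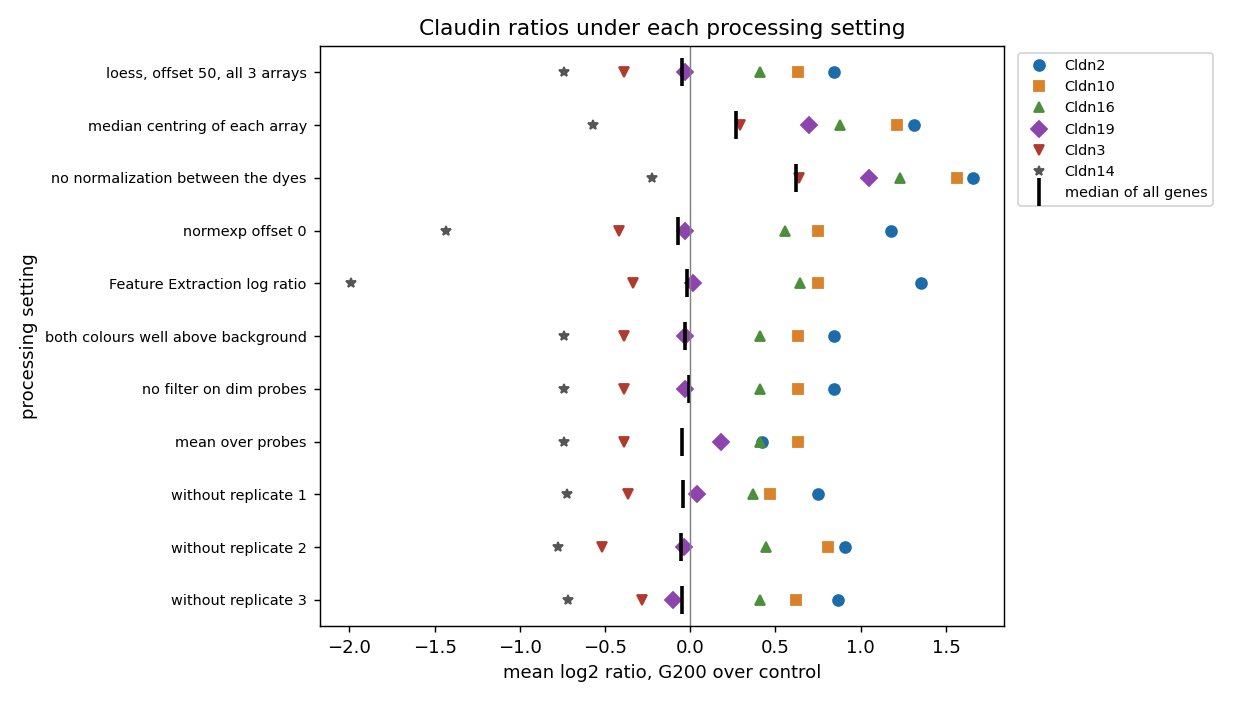
Mean log2 ratio (horizontal axis) of Cldn2, Cldn10, Cldn16, Cldn19, Cldn3 and Cldn14 under each processing setting (rows), with the median of all genes as a black bar. Cldn2, Cldn10 and Cldn16 stay right of that median and Cldn14 left of it in every setting drawn, while Cldn3 moves from -0.39 to 0.64 and Cldn19 from -0.03 to 1.05 when the dyes are not normalized.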

How the data were processed

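Kidney RNA of control and G200 rats was measured on 3 Agilent arrays with 2 colours. The files that the authors deposited come from Agilent Feature Extraction (11.5.1.1 per the file headers, 9.3.2.1 in the submitters' processing notes, another version in the study's methods) and give, for every spot, the deposited median intensity in each colour before correction, for the spot and for the background around it. The log10 ratio in the deposited files, which the authors obtained after background subtraction and dye normalization, served as an alternative. For their later analysis in GeneSpring GX the methods name a t-test of unequal variance, its threshold and a 2-fold criterion. The normalization settings are not given in the sources used here.

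Here the intensities were corrected with limma 3.58.1 in R 4.3.3 (normexp, offset 50) and normalized by loess within arrays. Control spots had weight 0, and 687, 796 and 1001 spots with outlier marks were left out on replicates 1, 2 and 3. Green signal was well above background in 59.8%, 62.7% and 62.3% of the non-control spots, and red signal in 63.0%, 56.6% and 61.0%. Precision is limited by how few arrays there are. Of 30367 probes, 18355 were matched by unversioned accession to a symbol (RefSeq, GRCr8). In at least 1 colour, a probe had to clear the background mark on every array (15651 probes), in over 0.5 of its spots, a share chosen while the analysis was being written. The brightest probe stood for its gene, which left 14183 genes, 1342 of them with several passing probes. Of the 14183, 8912 have a symbol, and the others (5271), kept under an accession or probe name, may hold a gene more than once. The test of each mean ratio against 0 was limma's moderated one (lmFit, eBayes), two-sided, and p was adjusted by Benjamini-Hochberg across all tested genes. Separate channels, used in 2 alternatives, were first normalized between arrays (Aquantile), a step added after their first counts were seen.

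The fit was checked on simulated ratios. A first version, with each gene's sample SD as the simulated spread, recovered fewer of the altered genes than the limit set for it. The spread was then replaced by limma's moderated SD, with which the limit was met. That SD comes from the fit itself and was chosen after the first result was seen. Meeting the limit is therefore no independent check of the fit. The fit itself was not altered.

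The members and lists were chosen with earlier results of these data known. Named genes were all listed claudins, every tested other claudin, and of each other list the largest called rise and fall with 1 sign on all arrays, the brightest gene and the defining markers. Some genes that this rule names are not reported here. The array pairs control and G200, since both were hybridized to it. P-values measure the spread between these arrays. Alternatives changed the normalization, background correction, filter, probe rule, test and replicates.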

Additional observations from a re-analysis of the deposited data

How the results depend on the processing

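Cldn2, Cldn10 and Cldn16 were positive under every alternative on their brightest probe, and the dimmer probe of Cldn2, chosen after seeing the data, gave -0.0023 where that of Cldn19 gave 0.39. The 4 called claudins became 7 without normalization between the dyes, 0 by the methods' t-test and 1 to 4 without 1 replicate each. Those called higher (3) became 5 with median centring, 7 without normalization, 0 by the methods' t-test and 1 to 3 without 1 replicate. Among the fits without 1 replicate the fewest, 1 (Cldn2), came without replicate 3. The 1 called lower, Cldn3, became 0 with median centring, without normalization, with a normexp offset of 0, with the Feature Extraction log ratio, by the methods' t-test and with separate channels, and 0 to 1 without 1 replicate. By the methods' t-test, 4178 genes and 2 claudins had an unadjusted p under 0.05, and 337 genes and 0 claudins an adjusted one (limma: 6964 genes and 5 claudins unadjusted). That test and the fit of separate channels treat the 3 control channels as 3 samples, although the control was counted as 1 sample.

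Over all genes, 5316 calls (1638 higher, 3678 lower) became 8314 (8010 and 304) without normalization, 4990 higher and 1246 lower with median centring, and 54 higher and 283 lower by the methods' t-test. Without 1 replicate each they were 1612 to 4972, with 183 to 1621 higher and 1429 to 3351 lower, the lowest counts coming without replicate 3. With no replicate block (separate channels) 4095 genes were called, 1018 of them higher, and 3 claudins, without Cldn3 (limma, adjusted p = 0.0649). The cause of these shifts was not tested.

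Cldn1 turned to 0.27 without normalization. Cldn19 turned to 0.70 with median centring, 1.05 without normalization, 0.015 in the Feature Extraction log ratio and 0.18 over both probes, and lay between -0.10 and 0.041 without 1 replicate (0.041 without replicate 1). Cldn3 turned to 0.29 and 0.64, and Cldn23 to 0.28 and 0.63, with median centring and without normalization. Relative to the median of all genes, with median centring Cldn2, Cldn10 and Cldn16 lay 1.04, 0.94 and 0.61 higher, and Cldn3 0.02 higher. The slide as a block was not run, because all arrays lie on 1 slide. Signals near background limit Cldn14, the dimmer Cldn2 probe, Cldn1, Cldn5 and Cldn7, and Cldn11 has no ratio. Cldn5 moved to 0.34 in the Feature Extraction log ratio and was not called there (limma, adjusted p = 0.0722).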
